A study of Mus musculus with 6 samples.

Results

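Expression of 7 matrix metalloproteinase (MMP) genes and 3 genes for tissue inhibitors of metalloproteinases (TIMPs) was examined in mouse tongue exposed to the oral carcinogen 4-nitroquinoline 1-oxide (4NQO). The genes were Mmp2, Mmp3, Mmp9, Mmp10, Mmp12, Mmp13, Mmp14, Timp1, Timp2 and Timp3, chosen by name as proteases linked to invasion of oral tumours and their inhibitors. All 10 genes were on the array, out of 18193 genes tested. They were read by 22 of the 34945 probe sets that the platform annotation gives to 1 gene alone. A probe set is a group of short probes against 1 transcript, and the probe set with the highest mean signal over all arrays stood for its gene.

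MMPs are zinc-dependent proteases that are secreted or held at the cell surface as inactive precursors and cut collagens, laminins, elastin and other proteins of the extracellular matrix. TIMPs bind the active site of these enzymes, so that proteolysis in a tissue depends on the levels of both. In oral epithelium, MMPs are known for wound repair, shedding of cell surface proteins and breakdown of the basement membrane during invasion. For several MMP genes, but not all, much of the control lies in transcription through AP-1 sites close to the gene start.

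Total RNA was extracted from individual tongues of C57BL/6J mice and hybridised to Affymetrix mouse arrays, 1 array per tongue. The 4NQO group held 3 mice given 4NQO at 100 µg/ml in drink for 8 weeks, and the control group held 3 untreated mice of the same strain. Sex and litter of the mice were not stated, and no age is given in the sample titles or the array methods. Values are log2 signals, so a difference of 1 is a doubling.

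The tissue label was checked against markers of tongue cell types. Over the 6 arrays the mean log2 signal of 7 skeletal muscle markers lay between 11.71 and 12.65. That of 7 basal keratinocyte markers lay between 10.65 and 11.18 and that of 9 fibroblast markers between 9.47 and 10.52. Array medians were 4.45 to 4.60. The muscle mean was lower in control 3 and 4NQO 2 (11.72 and 11.71) than in the other tongues (12.42 to 12.65), with the widest gap in Myh2. Arrays correlated at 0.974 to 0.989 with each other. The control probe sets of Gapdh gave a 3′ minus 5′ difference of 1.67 in control 3 and 1.07 in 4NQO 2. In the other tongues it was 0.086 to 0.47. This difference is a mark of RNA integrity and labelling. For beta-actin it was largest in 4NQO 1, at 1.12, then 1.01 in control 3, 0.95 in 4NQO 2 and 0.55 to 0.83 elsewhere. Across all genes limma called 24 of 18193 at an adjusted p under 0.05 (0.132%), 23 of them higher and 1 lower in 4NQO tongues.

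The stromelysin, elastase and collagenase genes lie in 1 cluster on mouse chromosome 9, in the order Mmp13, Mmp12, Mmp1b, Mmp3, Mmp1a, Mmp10, Mmp8, Mmp27, Mmp20 and Mmp7. The 100 bases before the start of the 4 clustered members, and of Timp1 on chromosome X, are shown because AP-1 is the factor family best known at these genes and because the AP-1 gene Fosl1 is described further on. Sequences are from RefSeq (GRCm38.p6), on the + strand, and capitals mark TGANTCA, the AP-1 motif. For Mmp12, which has a pair of annotated starts, the second is shown.
Mmp13, chr9:7272414-7272513: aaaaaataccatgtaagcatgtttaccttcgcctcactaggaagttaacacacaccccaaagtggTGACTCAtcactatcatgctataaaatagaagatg
Mmp12, chr9:7347274-7347373: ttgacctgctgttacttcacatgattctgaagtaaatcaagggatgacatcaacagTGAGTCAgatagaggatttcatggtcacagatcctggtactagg
Mmp3, chr9:7445722-7445821: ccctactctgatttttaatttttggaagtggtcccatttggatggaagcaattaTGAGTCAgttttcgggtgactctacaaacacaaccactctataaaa
Mmp10, chr9:7502242-7502341: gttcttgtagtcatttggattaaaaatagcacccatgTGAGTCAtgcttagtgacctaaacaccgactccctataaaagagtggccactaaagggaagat
Timp1, chrX:20870066-20870165: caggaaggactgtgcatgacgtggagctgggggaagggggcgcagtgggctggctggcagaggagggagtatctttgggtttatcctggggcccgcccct

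The motif began 35 bases upstream of the start in Mmp13, 44 in Mmp12, 46 in Mmp3 and 63 in Mmp10. Windows from 250 bases before to 50 after the start were given for 8 of the 10 genes, all but Mmp2 and Mmp9, and searched on both strands. TGANTCA was in 4 of their 9 windows, 1 for each clustered gene, and in 2565 of 32851 windows of all genes (7.81%). The core of the antioxidant response element, TGANNNNGC, was in 4 of the 9 windows, those of Mmp13, the first start of Mmp12, Timp2 and Mmp14, and in 41.3% of all windows. The window of the first Mmp12 start held no TGANTCA. The Mmp13 window held both motifs, which did not overlap. The windows of Timp1 and Timp3 held neither. These are matches of letters and not shown to be bound.

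No MMP or TIMP gene passed the test between 4NQO and control tongues. limma called 0 of the 10 genes in either direction, against 0.132% of all genes (0.126% higher and 0.0055% lower). Of the 10 genes, 0 had an unadjusted limma p under 0.05, against 10.4% of all genes (6.68% higher and 3.74% lower). SAM, the test named in the study's methods, also called 0 of 10. The groups overlapped for each of the 10 genes, and they did not overlap for 16.8% of all genes (9.59% higher and 7.18% lower in 4NQO tongues). With only 10 genes, a count of 0 is not far from any of these shares, and nothing particular to the 10 genes is read from it. The difference, 4NQO minus control, was above 0 for 7 of 10 genes, against 47.7% of all genes. That count rests on small values, as the difference of Mmp2 was below 0 after quantile normalization and that of Timp3 above 0 after centring of each array. Differences ran from -0.29 for Timp2 to 0.74 for Timp1, with a median of 0.12 against -0.01 for all genes. The median was 0.16 over the 7 proteases and -0.02 over the 3 inhibitors.

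**Figure D1:**
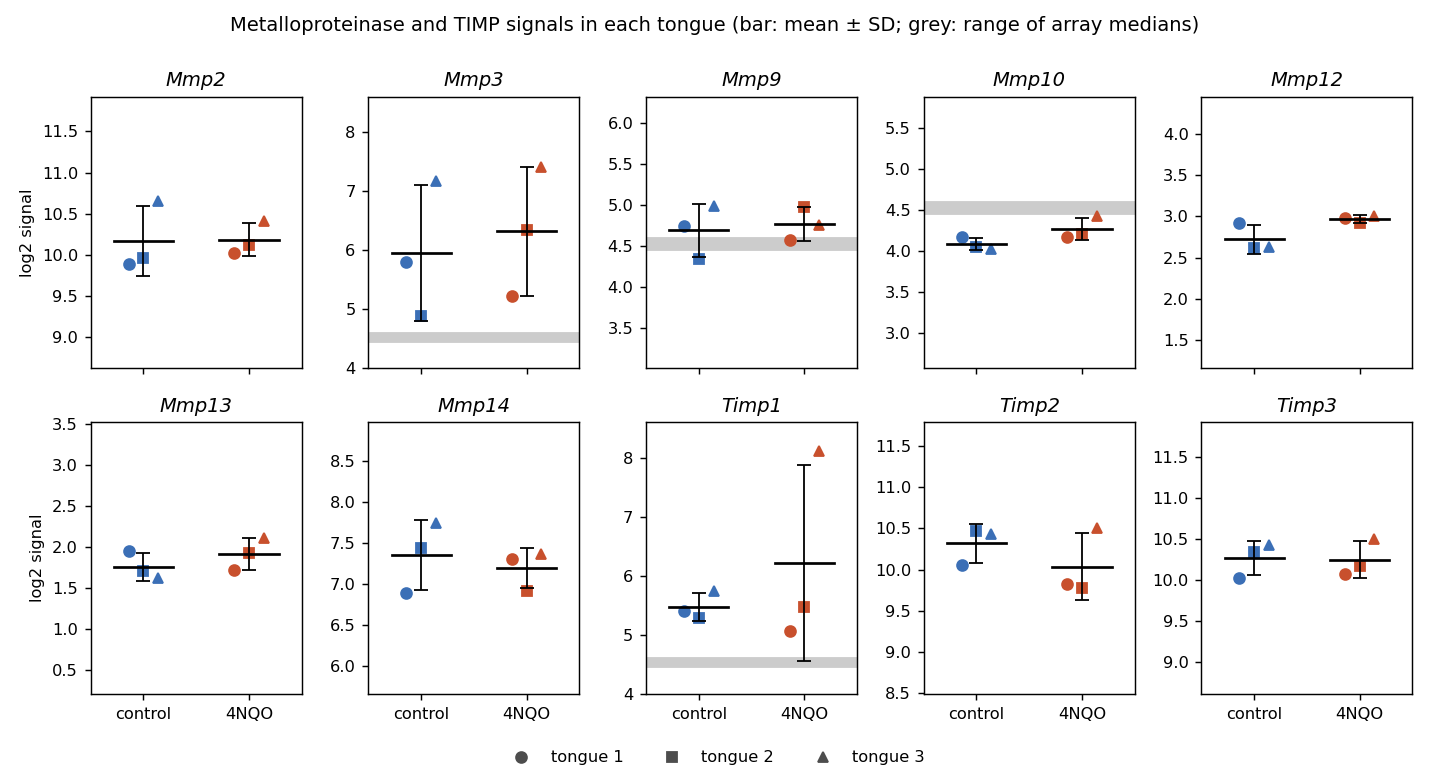
Log2 signal (vertical axis, with a scale of its own in each panel) of the 10 genes in 3 control (blue) and 3 4NQO tongues (orange), with the mean and SD of each group as bars. The grey band is the range of array medians and lies above the panels of Mmp12 and Mmp13. The groups overlap in every panel, and the single high Timp1 value of 8.12 belongs to 4NQO 3.

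Of the gelatinases, which cut denatured collagen and type IV collagen of basement membranes, Mmp2 was bright in every tongue. Its log2 signal was 9.89, 9.96 and 10.65 in control tongues 1, 2 and 3, and 10.02, 10.12 and 10.41 in 4NQO tongues 1, 2 and 3. Control 3 was highest, and the 4NQO values lay inside the control range. The means were 10.17 ± 0.42 and 10.18 ± 0.20 (SD, n = 3 each), a difference of 0.02 (SE 0.22, 95% interval -0.49 to 0.52, limma adjusted p = 0.984). The second probe set of Mmp2 had the same highest tongue and gave 0.08.

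Mmp9, the other gelatinase and a product of neutrophils and macrophages, was close to the array median. Its signal was 4.74, 4.35 and 4.98 in control tongues and 4.57, 4.97 and 4.75 in 4NQO tongues, with control 2 below its array median. The groups overlapped fully, and the difference was 0.07 (SE 0.21, 95% interval -0.40 to 0.55, limma adjusted p = 0.922). The second probe set was below the array median on 5 of 6 arrays and gave -0.33, so the 2 probe sets of Mmp9 differed in sign.

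Mmp3, stromelysin-1, which cuts proteoglycans and laminin and activates other MMP precursors, was among the most variable genes of the array. Its signal was 5.80, 4.88 and 7.17 in control tongues and 5.22, 6.33 and 7.40 in 4NQO tongues. High and low tongues were found in both groups: control 3 exceeded 4NQO tongues 1 and 2. The means were 5.95 ± 1.15 and 6.32 ± 1.09 (SD, n = 3 each). The spread within groups was larger than that of 99.4% of all genes, and the difference was 0.37 (SE 0.67, 95% interval -1.17 to 1.91, limma adjusted p = 0.878). Without control 2 the difference was -0.17, and without 4NQO 3 it was also -0.17.

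Mmp10 (stromelysin-2), Mmp12 (macrophage elastase) and Mmp13 (collagenase-3, which cuts fibrillar collagen) were below the array median in all 6 tongues, so their signals are not shown to be above background and no linear fold is given. Mmp10 read 4.18, 4.05 and 4.03 in control and 4.17, 4.21 and 4.43 in 4NQO tongues, a difference of 0.18 (SE 0.14, limma adjusted p = 0.676). Mmp13 read 1.95, 1.71 and 1.62 in control and 1.72, 1.92 and 2.11 in 4NQO tongues, a difference of 0.16 (SE 0.13, limma adjusted p = 0.691). In both genes control 1 lay among the 4NQO values.

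Mmp12 had the smallest p of the 10 genes. It read 2.92, 2.61 and 2.63 in control tongues and 2.99, 2.92 and 3.00 in 4NQO tongues. Control 1 and 4NQO 2 were at nearly the same value, and the other tongues were split by group. The difference was 0.24 (SE 0.12, 95% interval -0.03 to 0.52, limma adjusted p = 0.533).

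Mmp14, the membrane-bound protease that activates the Mmp2 precursor, read 6.89, 7.43 and 7.74 in control tongues and 7.30, 6.92 and 7.36 in 4NQO tongues. The 4NQO values lay within the control range. The difference was -0.16 (SE 0.24, 95% interval -0.71 to 0.39, limma adjusted p = 0.844). It was 0.03 without control 3.

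Among the inhibitors, Timp1, a secreted TIMP that is induced by cytokines, had the largest difference and the widest spread. It read 5.41, 5.29 and 5.74 in control tongues and 5.06, 5.47 and 8.12 in 4NQO tongues. The value of 4NQO 3 stood above all others, while 4NQO 1 was below every control tongue. The means were 5.48 ± 0.23 and 6.22 ± 1.66 (SD, n = 3 each), a difference of 0.74 (SE 0.70, 95% interval -0.88 to 2.36, limma adjusted p = 0.736). Without 4NQO 3 the difference was -0.21. The spread within groups exceeded that of 99.4% of all genes.

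Timp2, which inhibits MMPs and also serves in the activation of the Mmp2 precursor by Mmp14, read 10.05, 10.47 and 10.43 in control tongues and 9.83, 9.77 and 10.50 in 4NQO tongues. The tongues 4NQO 1 and 4NQO 2 were lowest and 4NQO 3 was highest. The difference was -0.29 (SE 0.22, 95% interval -0.79 to 0.22, limma adjusted p = 0.676). It was -0.52 without 4NQO 3 (limma adjusted p = 0.416) and -0.15 without 4NQO 2.

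Timp3, the TIMP that is bound to the matrix and also inhibits ADAM17, read 10.03, 10.34 and 10.43 in control tongues and 10.07, 10.17 and 10.50 in 4NQO tongues. The groups covered almost the same range. The difference was -0.02 (SE 0.16, 95% interval -0.39 to 0.36, limma adjusted p = 0.979).

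**Figure D2:**
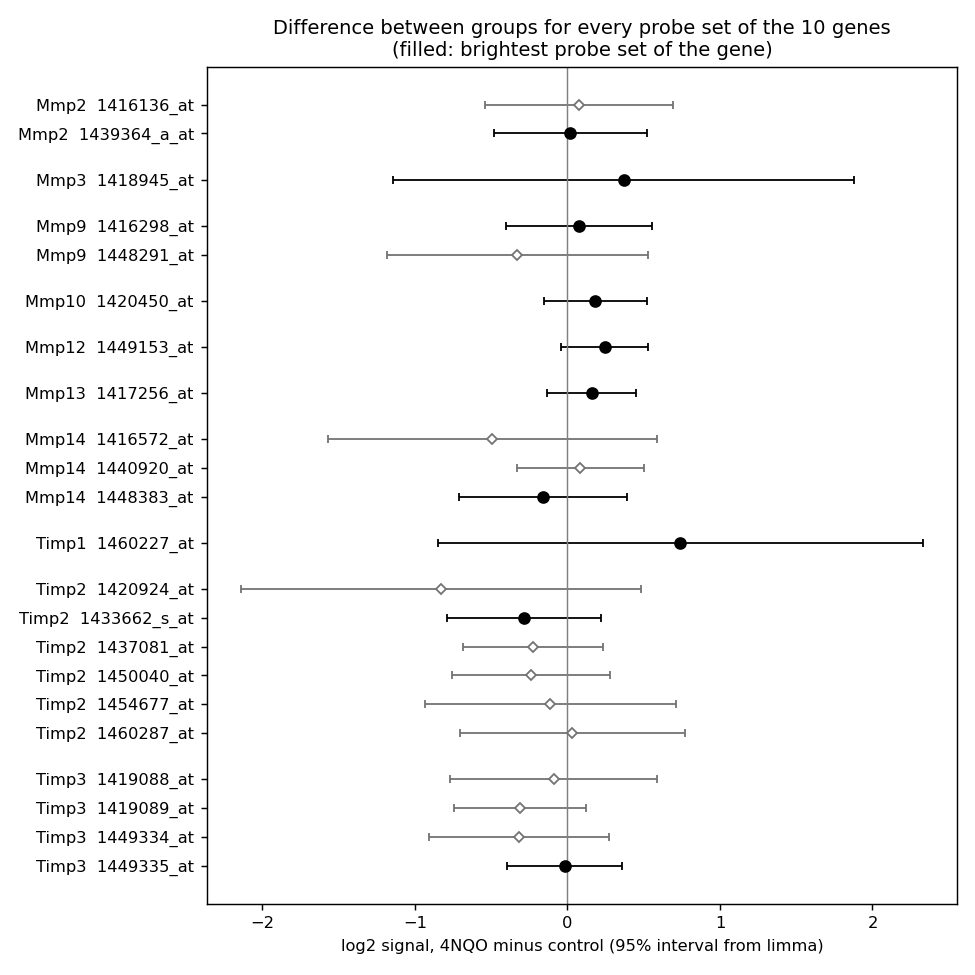
Difference in log2 signal, 4NQO minus control (horizontal axis), with its 95% interval from limma, for each of the 22 probe sets; filled points are the brightest probe set of a gene. Every interval includes 0, and the intervals of Mmp3 and Timp1 are the widest among filled points.

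The intervals set what these arrays could show. For the main probe set of Timp3 a change in either direction of more than 0.39 lay outside the 95% interval. For that of Mmp2 the limit was 0.52. Other probe sets of these genes had wider intervals, such as -0.91 to 0.28 for 1449334_at of Timp3 and -0.54 to 0.69 for 1416136_at of Mmp2. For Mmp3 and Timp1, the genes of widest spread, rises of up to 1.91 and 2.36 lay inside the interval and are not excluded.

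Probe sets of 1 gene did not follow the same order of tongues. For Mmp14, probe set 1416572_at read 5.81, 6.33 and 4.95 in control tongues and 5.91, 4.24 and 5.47 in 4NQO tongues, lowest in control 3 and 4NQO 2, whereas control 3 was the highest tongue for the main probe set. For Timp2, probe set 1420924_at read 6.78, 6.43 and 5.66 in control tongues and 6.08, 4.03 and 6.28 in 4NQO tongues, and the lowest were again control 3 and 4NQO 2. Its difference was -0.83 (SE 0.57, limma adjusted p = 0.640 over all probe sets), while the other 5 probe sets of Timp2 gave -0.29 to 0.03. The 3 further probe sets of Timp3 gave -0.09, -0.31 and -0.32.

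Control 3 and 4NQO 2 are the arrays with the largest Gapdh 3′ minus 5′ difference. By beta-actin the largest was that of 4NQO 1. Control 3 and 4NQO 2 were the 2 lowest tongues for 6 of 22 MMP and TIMP probe sets (27.3%), against 4208 of 34945 probe sets (12.0%). The 6 were 1 of Mmp14, 2 of Timp2 and 3 of Timp3. Without both arrays the main probe sets of Mmp14 and Timp3 gave 0.17 and 0.10. The probe sets of these genes still differed in sign, with -0.38 for 1416572_at of Mmp14 and -0.28 for 1419089_at of Timp3, and 1420924_at of Timp2 gave -0.43 against -0.10 for its main probe set. The part of RNA integrity in these differences between probe sets was not tested.

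**Figure D3:**
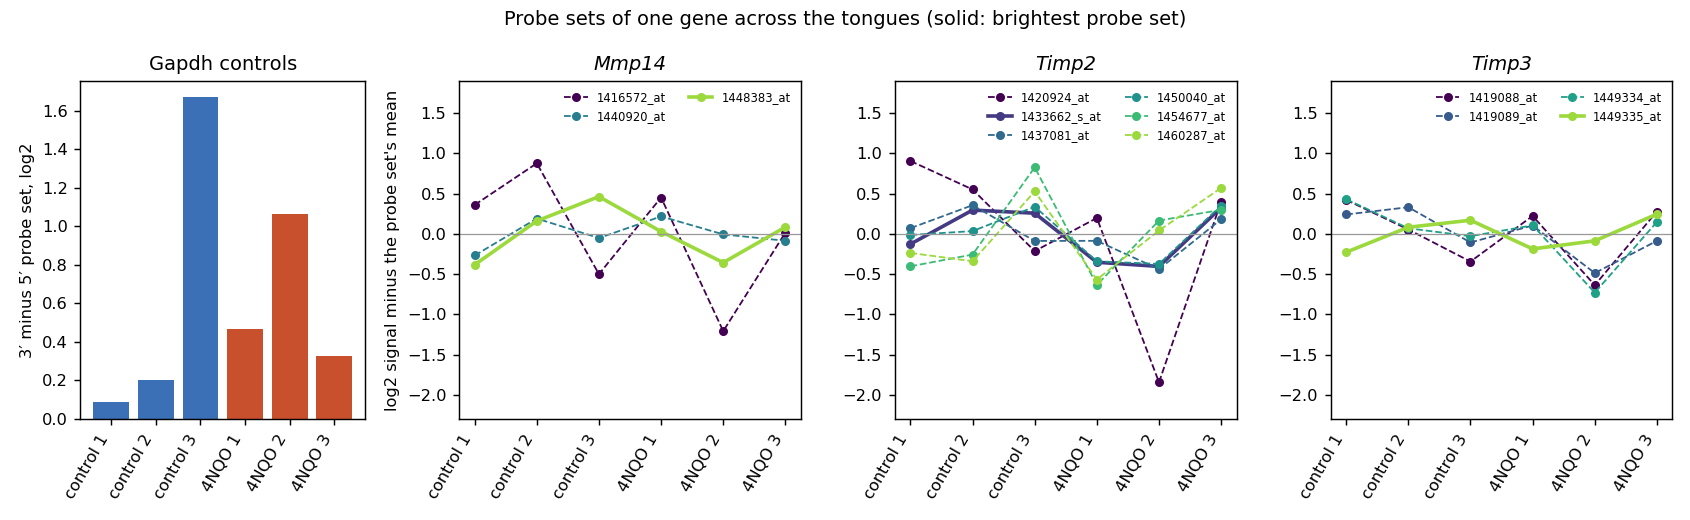
The left panel plots the Gapdh 3′ minus 5′ difference of each array in log2 units, and the other panels plot each probe set of Mmp14, Timp2 and Timp3 as log2 signal minus its own mean over the 6 tongues, with the brightest probe set as a solid line. Control 3 and 4NQO 2 have the largest Gapdh differences (1.67 and 1.07), and 6 dashed probe sets have their lowest values in these tongues.

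By the main probe set, 4NQO 3 had the highest signal of all 6 tongues for 7 of the 10 genes, against 13.9% of all genes. These were Mmp3, Mmp10, Mmp12, Mmp13, Timp1, Timp2 and Timp3. Some ranks were near ties, such as 3.00 against 2.99 in 4NQO 1 for Mmp12 and 10.50 against 10.47 in control 2 for Timp2. Mmp10, Mmp12 and Mmp13 were below the array median in all 6 tongues. The other probe sets of Timp3 were each highest in a control tongue. So were 1420924_at, 1437081_at and 1454677_at of Timp2, while 1450040_at and 1460287_at were highest in 4NQO 3. The genes share each tongue's RNA and are not independent. In 4NQO 3 the mean log2 signal of 10 macrophage markers was 7.30, against 6.23 and 6.58 in the other 4NQO tongues and 5.99 to 6.65 in control tongues, and 9 of the 10 were highest there. The mean of 8 neutrophil markers was 6.50 in 4NQO 3, 4.69 and 5.13 in 4NQO tongues 1 and 2 and 4.47 to 4.96 in control tongues.

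Timp1 stood beside these myeloid genes. S100a8, which neutrophils and stressed keratinocytes both make, read 7.01, 5.79 and 7.45 in control tongues and 8.04, 9.27 and 11.24 in 4NQO tongues (limma adjusted p = 0.261). Il1b, for the cytokine interleukin-1β, which induces MMP genes, read 4.72, 4.56 and 4.84 in control tongues and 5.48, 5.87 and 7.46 in 4NQO tongues (limma adjusted p = 0.286). Both had their highest value in 4NQO 3, as Timp1 did, but both were above every control value in 4NQO 1 also, where Timp1 was at its lowest. Of the 8 neutrophil markers, S100a8, S100a9 and Ltf were high in 4NQO 3, while Ngp, Camp, Elane and Mpo were below the array median in all 6 tongues. Csf3r was also highest in 4NQO 3, at 4.62, and above the array median there alone. Ltf, which glands also make, read 9.82 in 4NQO 3 and 6.86 in control 2, the tongues where the mean of 5 salivary gland markers was highest, at 6.19 and 5.46. The part of myeloid cells in the Timp1 value of 4NQO 3 was not tested. In RNA of whole tongue, fewer cells of a type and less RNA per cell cannot be told apart.

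Mmp2, Mmp3, Mmp9 and Timp1 had the same 3 highest tongues, control 3, 4NQO 2 and 4NQO 3, as did 8.77% of all genes. All 6 mast cell markers and 6 of 10 macrophage markers had the same 3. The mean log2 signal of the mast cell markers was 5.44, 5.14 and 6.93 in control tongues and 5.14, 6.24 and 6.13 in 4NQO tongues. They were highest in control 3, which was second to 4NQO 3 for Mmp3. Fibroblasts are the main source of Mmp2 in many tissues, and the mean of 9 fibroblast markers was also highest in control 3, at 10.52 against 9.47 to 10.01 elsewhere. However, 2 of the 9 fibroblast markers had the same 3 highest tongues, and the fibroblast mean in 4NQO 2 (9.82) was below that in control 2 (9.94). Control 3 and 4NQO 2 also had the largest Gapdh 3′ minus 5′ differences. Their means of 7 skeletal muscle markers were the lowest, at 11.72 and 11.71 against 12.42 to 12.65 elsewhere. The widest gap was that of Myh2, at 5.43 and 5.01 against 8.49 to 9.36 elsewhere. Control 3 was lowest for Myh1, Ckm and Tnnt3, and 4NQO 2 for Myh2 and Acta1, but neither was lowest for Myh4 or Mylpf. The part of cell types or of RNA integrity in the spread of Mmp2 and Mmp3 was not tested.

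**Figure D4:**
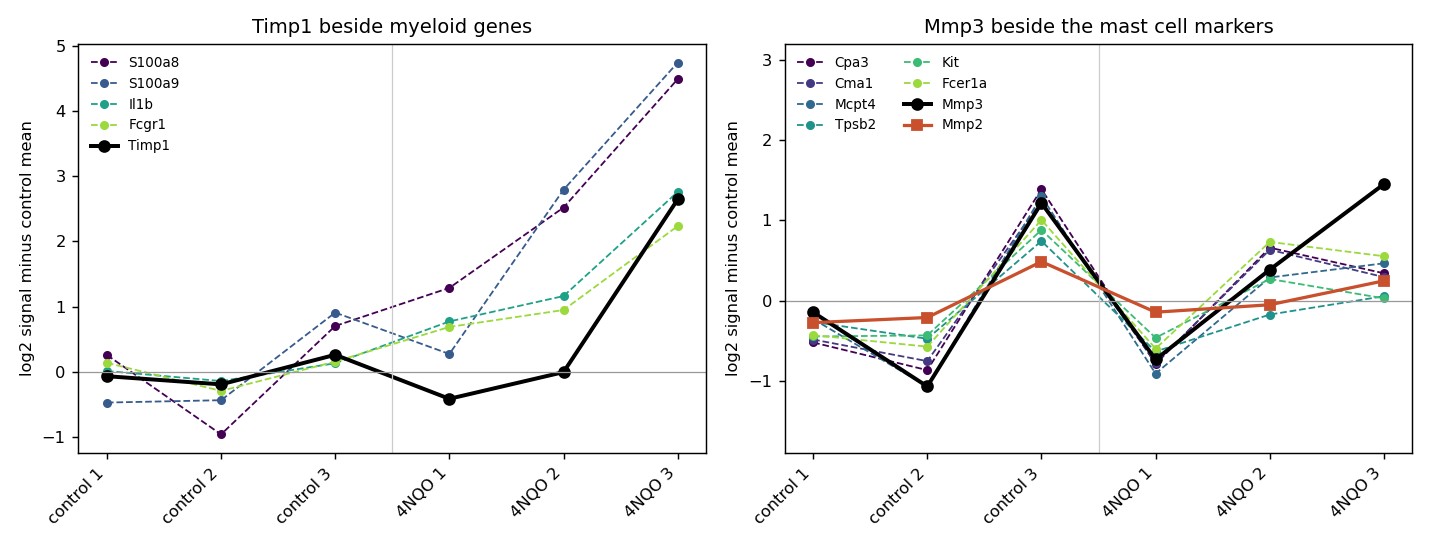
Signal of each tongue on the log2 scale (vertical axis), relative to the average of the 3 controls, for Timp1 with S100a8, S100a9, Il1b and Fcgr1 (left) and for Mmp3 and Mmp2 with the 6 mast cell markers (right). Timp1 is high in 4NQO 3 alone, whereas S100a8 and Il1b lie above all control values in each 4NQO tongue; Mmp3 and the mast cell markers are high in control 3.

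As a summary of proteases against inhibitors, the mean log2 signal of the 3 TIMPs was subtracted from that of the 7 MMPs in each tongue. The result depends on probe brightness, so only its change between tongues can be read, and it is given without a test because the genes were chosen with results known. It was -3.30, -3.70 and -3.32 in control tongues and -3.18, -3.13 and -4.07 in 4NQO tongues, lowest in 4NQO 3, the tongue with the high Timp1. The group means were -3.44 ± 0.23 and -3.46 ± 0.53 (SD, n = 3 each), a difference of -0.02. With the 3 dim proteases Mmp10, Mmp12 and Mmp13 left out the difference was -0.07.

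The genes most like Mmp12 and Timp2, the protease and the inhibitor with the smallest p, were sought by Pearson correlation over the 6 tongues among genes at or above the mean signal of the median gene. With so few tongues and 9097 genes ranked, high values arise easily, and they are given as a description. Mmp12 read 2.61 to 3.00, below the array median in all 6 tongues, so its pattern is not shown to be above background. For Mmp12 they were Bst2, Grb2, Oas1a, Ddx18 and Derl1 (r = 0.97 to 0.99). Bst2 and Oas1a are genes induced by interferon, and their differences were 0.94 (limma adjusted p = 0.396) and 2.22 (adjusted p = 0.254). For Timp2, among 9096 genes, they were Pip5k1a, Loxl3, Lamc1, Znrf1 and Nupr1 (r = 0.97 to 0.99), with differences from -0.12 for Pip5k1a to -0.35 for Nupr1.

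Around these genes, 8 lists of the same pathway were read from the same test, and 0 of the measured genes of any list passed it. Beside the number of genes in each list with an unadjusted p under 0.05 stands the 10.4% of all genes that had one, and nothing particular to a list is read from these numbers. Of the other secreted and membrane MMPs, 11 of 16 were measured. Their median difference was -0.12, 0 of 11 had an unadjusted limma p under 0.05, and those with the smallest p were Mmp1b (-0.16), Mmp16 (0.23) and Mmp24 (-0.17). Mmp1b was below the array median in all tongues.

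Of 12 other inhibitors, inducers and activators, 2 had an unadjusted p under 0.05 in limma, and the median was 0.23. Cd44, the hyaluronan receptor that holds active Mmp9 at the cell surface, read 9.60, 9.85 and 9.78 in control tongues and 10.31, 10.56 and 10.21 in 4NQO tongues. All 4NQO tongues were above all control tongues, and the difference of 0.62 (SE 0.14) missed the threshold (limma adjusted p = 0.171). Timp4, the TIMP known from heart and muscle, read 7.27, 7.36 and 7.28 in control tongues and 7.13, 6.53 and 7.06 in 4NQO tongues. Here all 4NQO tongues were below all control tongues, with a difference of -0.40 (SE 0.19, limma adjusted p = 0.515). The broad protease inhibitor A2m gave 0.52 (limma adjusted p = 0.216) at signals below the array median.

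Of 13 ADAM and ADAMTS proteases measured, 2 had an unadjusted p under 0.05 in limma and the median was 0.06. Adam10, a sheddase of cadherins and Notch, gave 0.56 (SE 0.19, limma adjusted p = 0.358), Adam12 gave 0.49 (adjusted p = 0.366) at signals below the array median, and the aggrecanase gene Adamts5 gave -0.89 (adjusted p = 0.491). Of 8 genes of plasminogen activation, the cascade that activates MMP precursors, 1 had an unadjusted p under 0.05 and the median was 0.01. That gene was Serpinb2, the urokinase inhibitor PAI-2. It read 4.80, 4.57 and 5.30 in control tongues and 5.70, 6.38 and 5.85 in 4NQO tongues, a difference of 1.08 (SE 0.25, limma adjusted p = 0.187). S100a10 and Anxa2, which form a plasmin receptor, gave 0.40 and 0.20.

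Of 9 cysteine cathepsins and cystatins, 3 had an unadjusted p under 0.05 in limma and the median was 0.07. The inhibitor gene Cstb read 10.09, 9.97 and 10.21 in control tongues and 10.74, 10.70 and 10.74 in 4NQO tongues. The 4NQO tongues lay close together above the controls, and the difference of 0.64 (SE 0.11) was short of the threshold (limma adjusted p = 0.0928). Cst6, a cystatin of cornified epithelium, gave 0.85 (limma adjusted p = 0.387), and Ctss, a cathepsin of antigen-presenting cells, gave 1.09 (adjusted p = 0.420).

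Of 18 matrix substrates measured, 1 had an unadjusted p under 0.05 in limma and the median was -0.19. Col1a2, a chain of type I collagen, read 11.13, 11.46 and 11.83 in control tongues and 10.94, 10.98 and 10.99 in 4NQO tongues. All 4NQO tongues were below all control tongues, with a difference of -0.50 (SE 0.17, limma adjusted p = 0.377). The proteoglycan gene Dcn gave -0.20 (limma adjusted p = 0.506) and Eln, for elastin, gave -0.39 (adjusted p = 0.581). Fibroblast markers, which share Col1a2 and Dcn, had a median difference of -0.35 over 9 genes.

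Of 14 cytokines and growth factors that regulate MMP genes, 1 had an unadjusted p under 0.05 in limma, Il1b with a difference of 1.56 (SE 0.46), and the median was 0.03. Osm gave 0.32 at signals below the array median and Tgfa gave 0.29. Of 14 AP-1, ETS and NF-kB factors, 2 had an unadjusted p under 0.05 and the median was 0.12. Fosl1, the AP-1 subunit Fra-1, read 4.01, 3.65 and 4.71 in control tongues and 6.44, 5.62 and 6.08 in 4NQO tongues. Its groups were well apart, yet the difference of 1.92 (SE 0.31) was short of the threshold (limma adjusted p = 0.0703), and 2 of the control values were below the array median. The ETS factors Ets1 and Etv5 gave 0.39 (limma adjusted p = 0.465) and 0.31 (adjusted p = 0.550). The 4 clustered MMP genes with TGANTCA in a window, for Mmp12 that of the second start only, gave 0.16 to 0.37, all with overlapping groups. Of these, Mmp10, Mmp12 and Mmp13 were below the array median in all 6 tongues. Mmp3 gave -0.17 without control 2 and also without 4NQO 3. A link to Fosl1 was not tested.

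**Figure D5:**
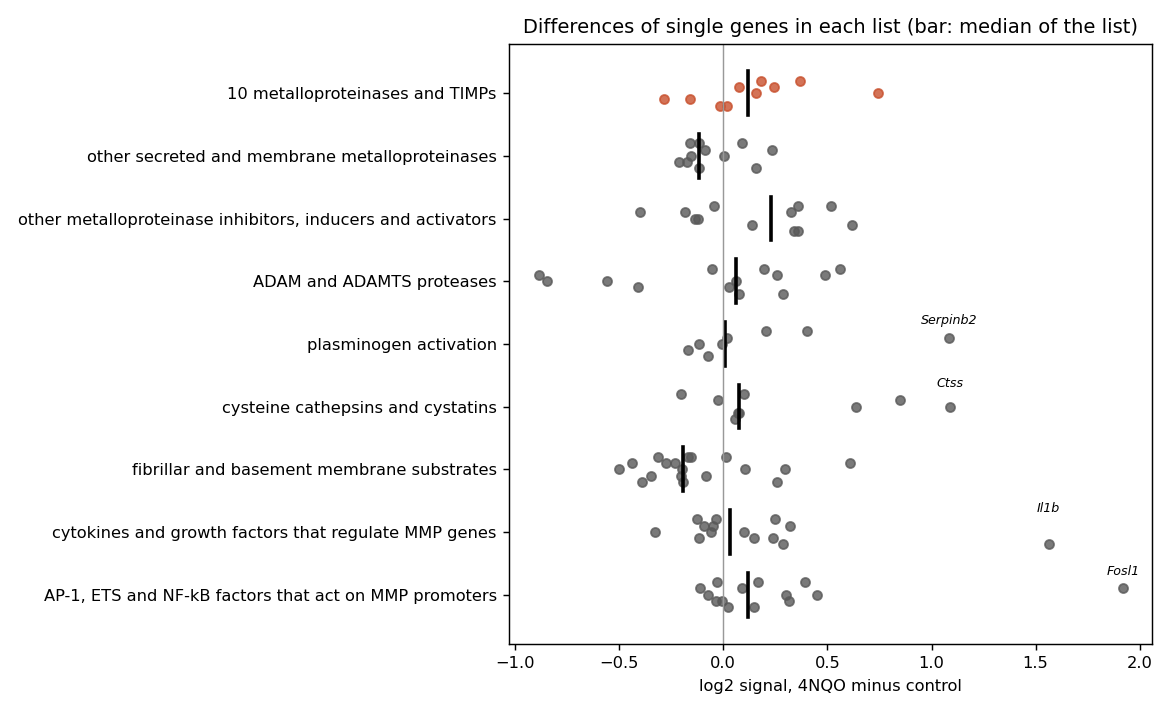
Difference in log2 signal, 4NQO minus control (horizontal axis), of single genes in 9 lists, with the median of each list as a bar and the 10 MMP and TIMP genes in orange. The 10 genes lie between -0.29 and 0.74, while Fosl1 (1.92), Il1b (1.56), Ctss (1.09) and Serpinb2 (1.08) lie farthest to the right, none of them past the threshold.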

How the data were processed

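RNA of 6 mouse tongues was measured on Affymetrix arrays, 3 control and 3 4NQO. For each probe set a log2 signal was deposited, after pre-processing and normalization by the authors with Bioconductor packages. Which normalization was used is not given in the sources read. Array medians differed slightly, so centring and quantile normalization were run as alternatives.

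The array has 45101 probe sets. Those that name 1 gene (34945) were used. Left out were 932 with several genes, 9160 with no gene and 64 array controls. Symbols were looked up in a GRCm38.p6 table, where 18032 of 18193 genes were found. No dim genes were left out. All genes were tested with limma 3.58.1 in R 4.3.3 (lmFit, eBayes with an intensity trend, Benjamini-Hochberg, threshold 0.05), after a check on simulated data. SAM, the methods' test, was run with 20 permutations.

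The members, lists and tests were chosen with earlier results of these data known. All 10 members are named, with up to 3 genes of smallest p per list, up to 2 per marker list and 5 most alike in pattern. Ngp, Camp, Elane, Mpo, Ltf and Csf3r, the mast cell genes of a plot and skeletal muscle genes other than Myh4 and Acta1 fall outside that rule. They were chosen after their values were seen. The number of arrays, 3 per group, limits the precision. The promoter sequences are from RefSeq.

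Replicate numbers were not taken as pairs. Alternatives were quantile normalization, centring, a filter on dim genes, other probe sets, other variance models, a replicate block, other thresholds and leaving out arrays.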

Additional observations from a re-analysis of the deposited data

How the results depend on the processing

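Across 156 alternative values for the 10 genes, 0 passed the threshold (smallest limma adjusted p = 0.371, for Mmp12) and 134 kept the sign. The 134 include values that could not change sign. Other variance models, a replicate block and a filter on dim genes alter the test and leave the difference as it was. The mean of probe sets and the probe set of largest spread also leave it unchanged for genes without further probe sets. Of the 22 values that changed sign, Mmp2 was -0.0046 after quantile normalization and Timp3 was 0.057 with each array centred on its median. Mmp9 was -0.13 as the mean of its probe sets, and -0.33 for the probe set of largest spread, 1448291_at. Mmp14 was 0.085 for probe set 1440920_at, and Timp2 was 0.032 for probe set 1460287_at. Without both arrays of largest Gapdh difference, Mmp14 was 0.17 and Timp3 was 0.10.

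Leaving out each tongue in turn gave ranges of -0.12 (without control 1) to 0.26 (without control 3) for Mmp2, -0.17 (without 4NQO 3) to 0.98 (without control 3) for Mmp3, -0.098 (without control 2) to 0.22 (without control 3) for Mmp9, -0.39 (without control 1) to 0.030 (without control 3) for Mmp14, -0.21 (without 4NQO 3) to 1.32 (without 4NQO 1) for Timp1 and -0.14 (without 4NQO 3) to 0.071 (without 4NQO 1) for Timp3. Mmp10, Mmp12, Mmp13 and Timp2 kept their sign without any 1 tongue, at 0.10 to 0.23, 0.19 to 0.35, 0.064 to 0.26 and -0.52 to -0.15. The balance of proteases and inhibitors was -0.18 without 4NQO 2 and 0.29 without 4NQO 3. Of 88 alternative medians of the pathway lists, 12 moved by more than the spread between tongues. The median of the other inhibitors, inducers and activators was -0.086 without 4NQO 3 and 0.40 without control 3. These leave-out values of the balance were added after seeing the data.

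The number of all genes called, 23 higher and 1 lower, was 63 and 2 with centring, 43 and 4 with robust variance, 103 and 8 at an adjusted p under 0.1, 59 and 0 by SAM, and 4 and 0 without both arrays of largest Gapdh difference. The number higher was 12 with dim genes left out, 15 with the mean of probe sets and 14 with the probe set of largest spread, and the number lower was 2 without the intensity trend. Without 1 tongue, 0 (without control 2) to 25 genes were called higher and 0 to 2 lower; 10 were higher without 4NQO 1 and 1 without 4NQO 2. The cause was not tested.

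With the replicate number as a block, 2 genes were called higher and 0 lower, and 0 of the 10 genes. Deviations of same-numbered tongues correlated at 0.29, -0.51 and 0.05, so the numbers were not read as pairs. Mmp10, Mmp12 and Mmp13 had signals below the array median on every array.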

Other observations

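Among cell types not described above, 3 of 7 suprabasal keratinocyte markers, Krt6a, Krt16 and Sprr1b, had all 4NQO tongues above all control tongues. The share over all genes was 9.59%. Of the 7 markers, 0 passed the test. Krt13, Krt4, Ivl and Dsg1a had overlapping groups, with differences from -0.20 for Krt4 to 0.54 for Dsg1a, and the median of the list was 0.34. Krt16, a keratin of stressed epithelium, read 12.66, 12.42 and 12.14 in control tongues and 13.49, 12.88 and 13.18 in 4NQO tongues (limma adjusted p = 0.194). Sprr1b, a precursor of the cornified envelope, read 9.14, 8.94 and 10.96 in control tongues and 11.57, 11.65 and 11.65 in 4NQO tongues (limma adjusted p = 0.202).

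Of 6 T and NK cell markers measured, 0 passed the test and all had overlapping groups. Their differences ran from -0.02 for Cd4 to 0.94 for Cd3g, with 0.07 for Cd8a, 0.16 for Cd3e, 0.68 for Cd3d and 0.87 for Nkg7. The pair with the smallest p was Cd3g and Nkg7, whose highest tongues were 4NQO 2 and 4NQO 3. Cd3g read 3.74, 3.45 and 3.33 in control tongues and 3.67, 5.01 and 4.66 in 4NQO tongues (limma adjusted p = 0.374). Nkg7 read 3.32, 3.88 and 3.52 in control tongues and 3.58, 4.87 and 4.88 in 4NQO tongues (limma adjusted p = 0.447).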
